A study of Mus musculus with 12 samples.

Results

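The genes described here are the 10 class I and class II histone deacetylases of the mouse, Hdac1 to Hdac10, measured as mRNA in normal mammary gland and in mammary tumors. They were chosen by name as a gene family, with no threshold on their measured values, from 23704 gene names in the tables of the Normal and Tumor samples and 23691 in those of the DMSO and C646 samples. Each of the 10 names stood in 1 row in every sample, and Hdac5 stood only in a row joined with the microRNA gene Mir8101.

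RNA-seq was performed on 12 samples in 4 groups of 3, all from mice 12 weeks old. Normal samples were mammary gland of FVB wild type females without treatment, and each pooled abdominal and inguinal glands of 3 mice. Tumor samples were mammary tumors of untreated female MMTV-PyVT mice, also of the FVB strain, taken from a thoracic gland of 1 mouse each. DMSO and C646 samples were the biggest tumors of female MMTV-PyVT mice of the same strain, with 1 mouse per sample. The mice were given injections of DMSO or of C646, each labelled with a dose of 1 mg/kg. MMTV-PyVT mice carry the polyomavirus middle T antigen under the mouse mammary tumor virus promoter, which is active mainly in mammary epithelium. The transgene, the gland position and the number of mice in a sample differed together between Normal and Tumor, and their parts in a difference cannot be told apart. The comparison of Normal with Tumor asks which deacetylase mRNAs differ in tumor tissue, and that of DMSO with C646 asks whether they move when histone acetylation by p300 is inhibited.

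Histone deacetylases remove acetyl groups from lysines of histones and other proteins and so oppose acetyltransferases such as p300 and CBP, the enzymes that C646 inhibits. Class I enzymes (Hdac1, Hdac2, Hdac3 and Hdac8) are mainly nuclear. Hdac1 and Hdac2 are the catalytic subunits of the SIN3, NuRD and CoREST corepressor complexes, whereas Hdac3 works in the NCoR complex and Hdac8 acts outside these complexes, with the cohesin subunit Smc3 as a known substrate. Class IIa enzymes (Hdac4, Hdac5, Hdac7 and Hdac9) have weak catalytic activity of their own, bind MEF2 transcription factors, and leave the nucleus bound to 14-3-3 proteins once kinases phosphorylate them. Class IIb holds Hdac6, a cytoplasmic deacetylase of alpha-tubulin, and Hdac10, a polyamine deacetylase.

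Levels are given in FPKM, fragments mapped to a gene scaled by its transcript length and by all mapped fragments, as the authors deposited them. FPKM corrects for transcript length, so levels of different genes can be set side by side. Mapped reads per library are not in the tables, so no counting error can be given. Between 11853 and 12792 names reached 1 FPKM in a sample. The 2 experiments were deposited with different sets of rows, so each was tested within itself, and a level in Tumor set beside one in DMSO is a description.

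The tissues differed widely in their cell type markers, and bulk RNA cannot tell fewer cells of a type from less RNA per cell. The limma test described below called 31.7% of all genes tested lower in Tumor than in Normal and 28.8% higher. Of the marker lists, 10 of 10 endothelial, 10 of 10 adipocyte and 5 of 5 brown fat genes were called lower. So were 7 of 8 fibroblast, 5 of 8 macrophage, 8 of 8 B lymphocyte and 7 of 7 T lymphocyte genes. However, all B lymphocyte genes, Cd3d, Cd3e, Cd4, Cd8a, Bcl11b and Dio2 were below 1 FPKM in every Tumor sample. They passed the filter through Normal alone, so these calls rest in part on the filter. Lep, Plin1, Cidec, Pparg, Retn, Ucp1, Elovl3, Tek, Cd3g, Myh11 and Cnn1 had 1 or more Tumor samples below 1 FPKM. They also needed Normal samples to pass. In the other direction, 7 of 8 luminal epithelial, 8 of 8 proliferation and 10 of 10 skeletal muscle genes were higher in Tumor. Of 8 basal epithelial genes, 2 were higher and 4 lower. The muscle genes Actn3, Myh1 and Myh2 were below 1 FPKM in every Normal sample and passed the filter through Tumor alone. Myh4, Pvalb and Atp2a1 had 1 or more Normal samples below 1 FPKM and also needed Tumor samples to pass. The labels name mammary tissue only, and muscle is not among what they describe. Summed B lymphocyte markers were between 279.5 and 352.8 FPKM in Normal and between 0.479 and 1.08 in Tumor, where Ms4a1 and Cr2 were listed at 0 in all 3 samples. Summed skeletal muscle markers were between 12.4 and 97.8 FPKM in Normal and between 1810 and 5195 in Tumor. Tumor 1 stood apart with the highest muscle sum, and its adipocyte sum of 2520 FPKM lay above the 121.1 and 147.3 of Tumor 2 and Tumor 3. In the second experiment the muscle sum was 410.9 FPKM in DMSO 3, 422.6 in C646 1 and 381 in C646 3, against at most 2.66 in the other 3 samples. Its adipocyte sums were 18.0, 80.7 and 63.8 FPKM in DMSO and 105.7, 386.6 and 627 in C646, with no overlap, and the part of this tissue in the values of the members was not tested.

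**Figure D1:**
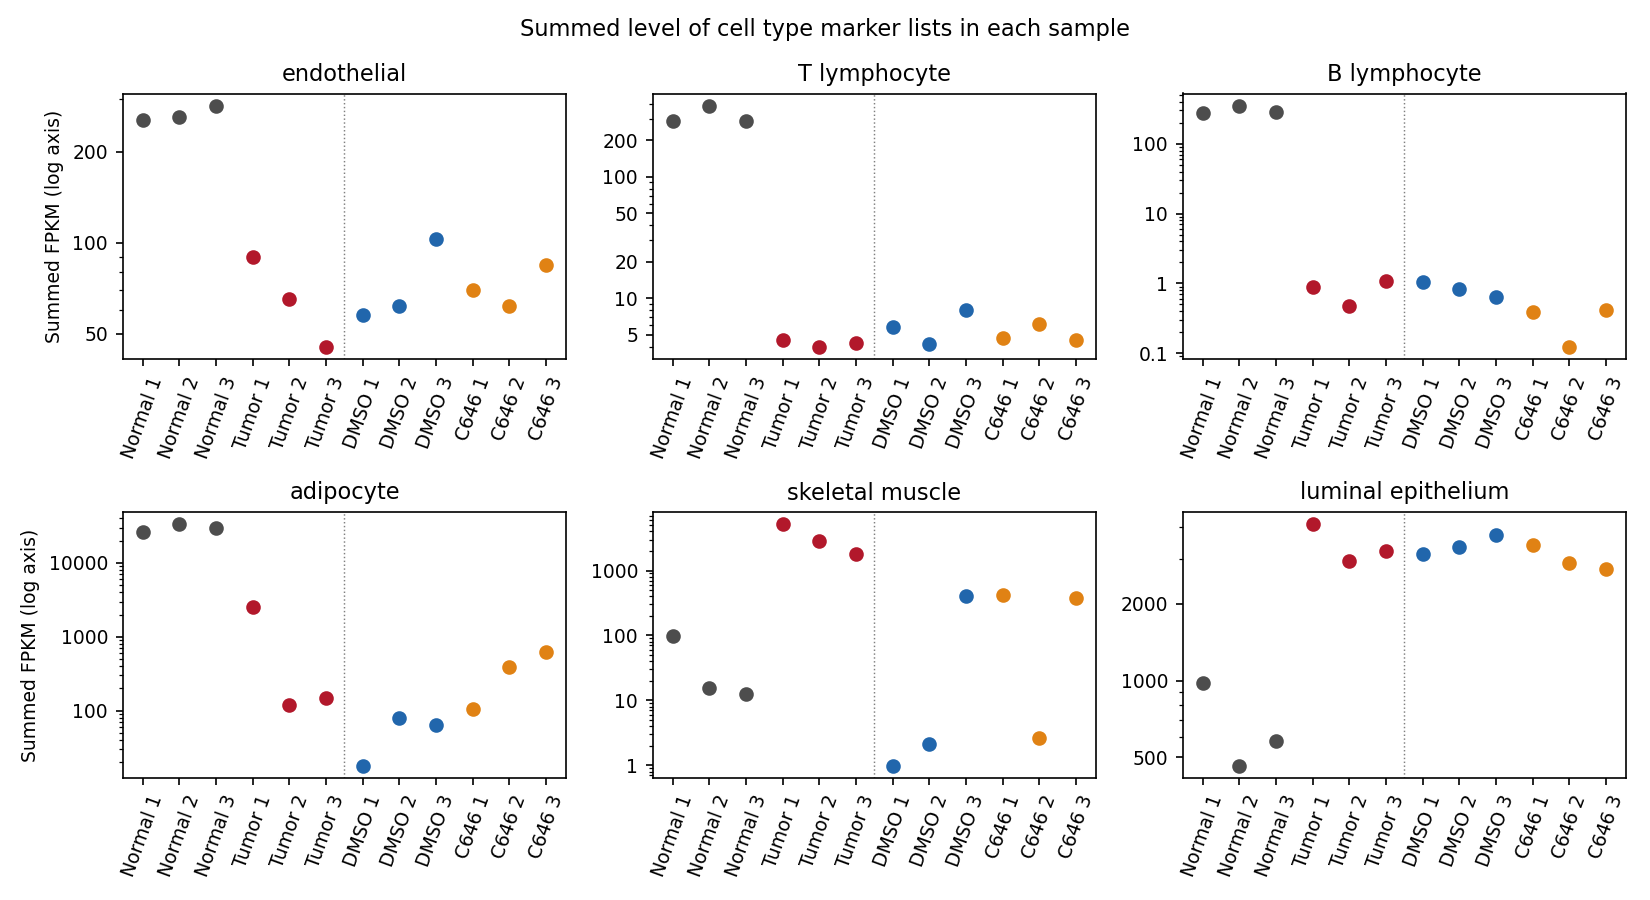
Summed FPKM of 6 cell type marker lists (log axis) in each of the 12 samples, with grey for Normal, red for Tumor, blue for DMSO and orange for C646. The dotted line separates the 2 experiments. Endothelial, lymphocyte and adipocyte sums lie higher in all 3 Normal samples than in any tumor, and the muscle sum is highest in the 3 Tumor samples.

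Hdac3 was the most abundant of the 10 mRNAs in all 4 groups, and Hdac9 the least. In Normal tissue Hdac3 averaged 45.8 ± 1.76 FPKM (SD, n = 3), followed by Hdac2 with 39.7 ± 1.64, Hdac5 with 31.4 ± 2.14 and Hdac1 with 29.5 ± 0.460, and no sample of any of these genes overlapped the next in order. Hdac10 and Hdac7 came next in Normal with 18.2 ± 5.45 and 17.6 ± 1.59 FPKM, and their ranges overlapped. Hdac6, Hdac8 and Hdac4 lay between 3.73 and 6.03 FPKM on average, and Hdac9 at 0.995 ± 0.101. In Tumor the order changed for Hdac7, which stood 6th in Normal and 9th in Tumor, where its range overlapped that of Hdac4 above it. Hdac3 was separated from the gene below it in all 4 groups.

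The FPKM summed over the 10 genes lay between 186.8 and 208.1 in Normal and between 224.2 and 288.8 in Tumor. It lay between 244.3 and 290.0 in DMSO, and between 268.3 and 279.4 in C646. The FPKM over all rows also varied, from 550599.2 to 639409.2 in Normal and from 625568.4 to 783718.6 in Tumor. The sums over the 10 genes were not scaled to it. Class I genes made up 59.4 to 63.5% of the sum over the 10 genes in Normal and 56.3 to 69.7% in Tumor. The shares of the class thus overlapped. Within class I, however, the share of Hdac3 was 23.0 ± 0.681% in Normal and 35.0 ± 1.65% in Tumor (SD, n = 3), with no overlap, while the share of Hdac1 was 14.9 ± 0.614% and 8.64 ± 2.94%. The ratio of Hdac3 to Hdac1 mRNA ranged from 1.53 to 1.59 over the Normal samples and from 3.35 to 6.28 over the Tumor samples. The share of Hdac7 was 8.82 ± 0.325% in Normal and 1.49 ± 0.319% in Tumor. The ratio of Hdac5 to Hdac7, both of class IIa, was between 1.68 and 1.92 in Normal and between 9.78 and 19.8 in Tumor. In DMSO and C646 the same ratio lay between 6.69 and 9.48, with the groups overlapping.

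**Figure D2:**
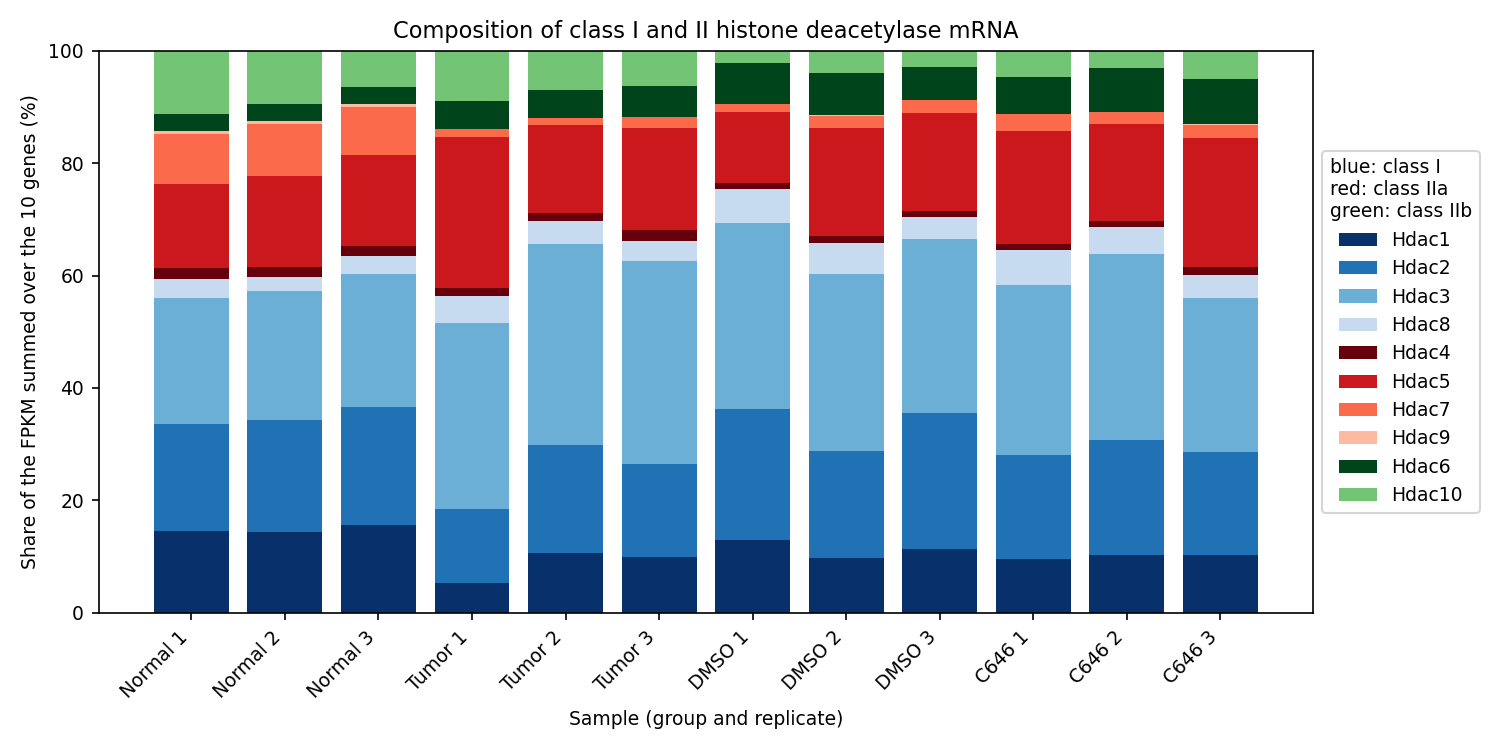
Share (%) of each histone deacetylase in the FPKM summed over the 10 genes, 1 bar per sample, with class I in blue, class IIa in red and class IIb in green. The share of Hdac3 is larger in the Tumor, DMSO and C646 bars (27.5 to 36.1%) than in the Normal bars (22.4 to 23.8%), and that of Hdac7 is smaller.

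For the tests, log2(FPKM + 0.03125) was compared with limma over all genes that reached 1 FPKM in 3 or more samples of an experiment, and p-values were adjusted by Benjamini-Hochberg over all of these genes. Between Tumor and Normal, Hdac3, Hdac6 and Hdac8 rose and Hdac7 fell. Hdac1, Hdac2, Hdac4, Hdac5 and Hdac10 did not pass the threshold of 0.05, and Hdac9 was below the filter and was not tested. That is 4 of 9 members tested, whereas 60.5% of all 13031 genes tested were called, 28.8% as higher and 31.7% as lower. The share of called members was thus below the background of this comparison, in which most genes tested differed. The Tumor and Normal ranges did not overlap for 6 of the 9 members tested, against 68.9% of all genes tested. Of these 6, 4 were higher (33.1% of all genes) and 2 lower (35.8% of all genes).

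**Figure D3:**
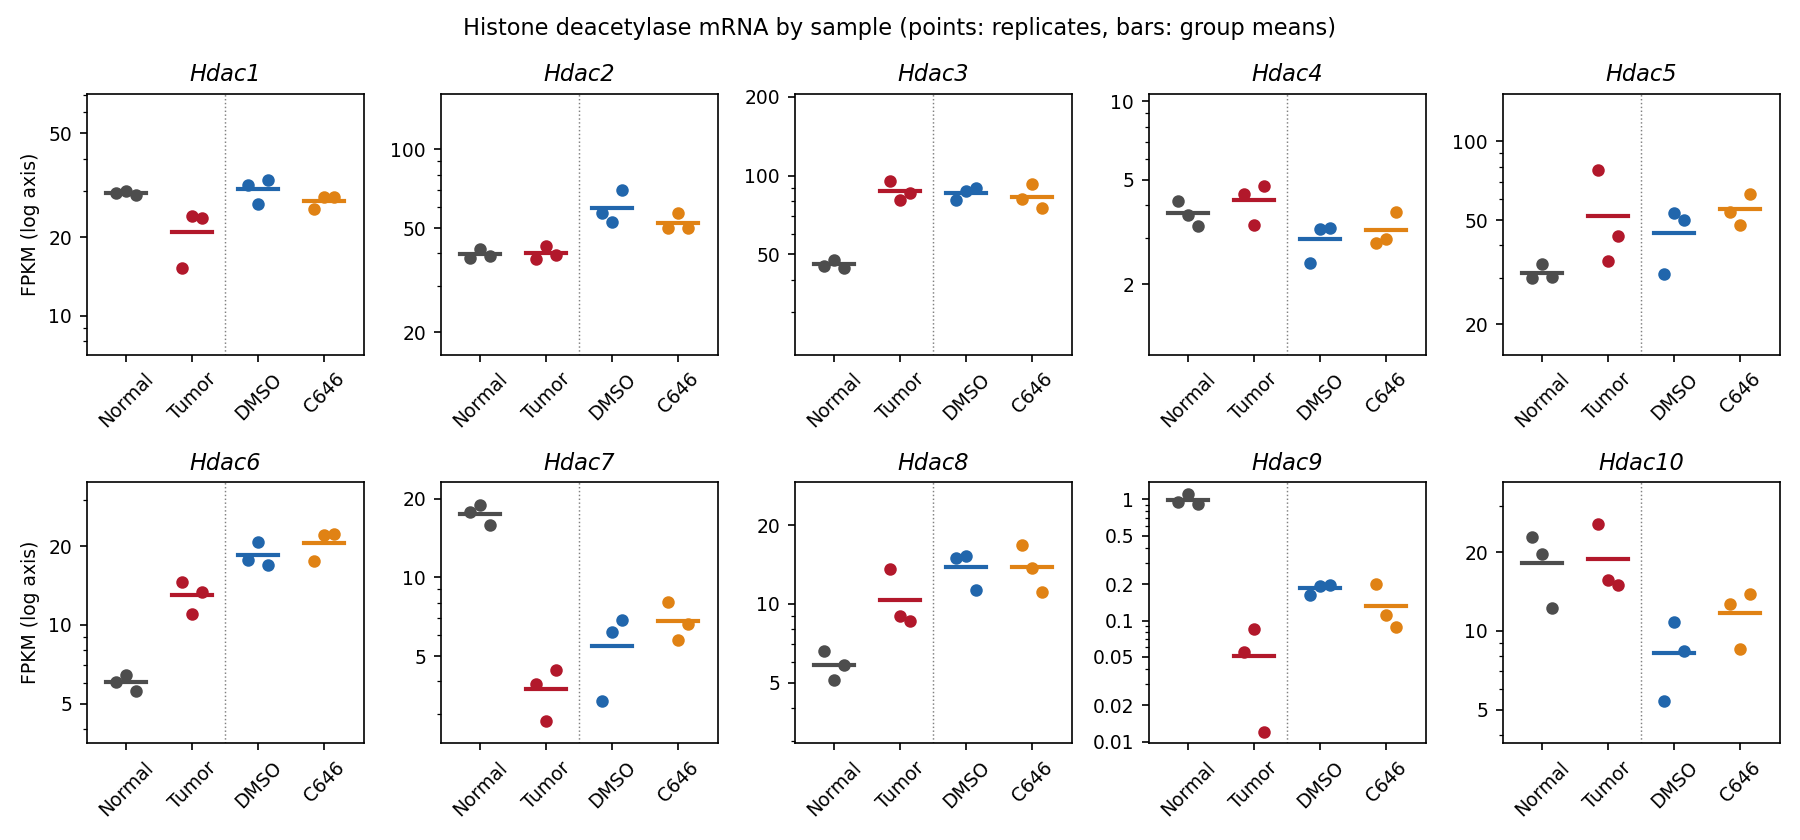
FPKM of each of the 10 genes (log axis, 1 panel per gene) in the 3 samples of each group, with points for samples and bars for group means. Hdac3, Hdac6 and Hdac8 are higher and Hdac7 and Hdac9 lower in every Tumor sample than in every Normal sample, and DMSO and C646 points overlap in all 10 panels.

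**Figure D4:**
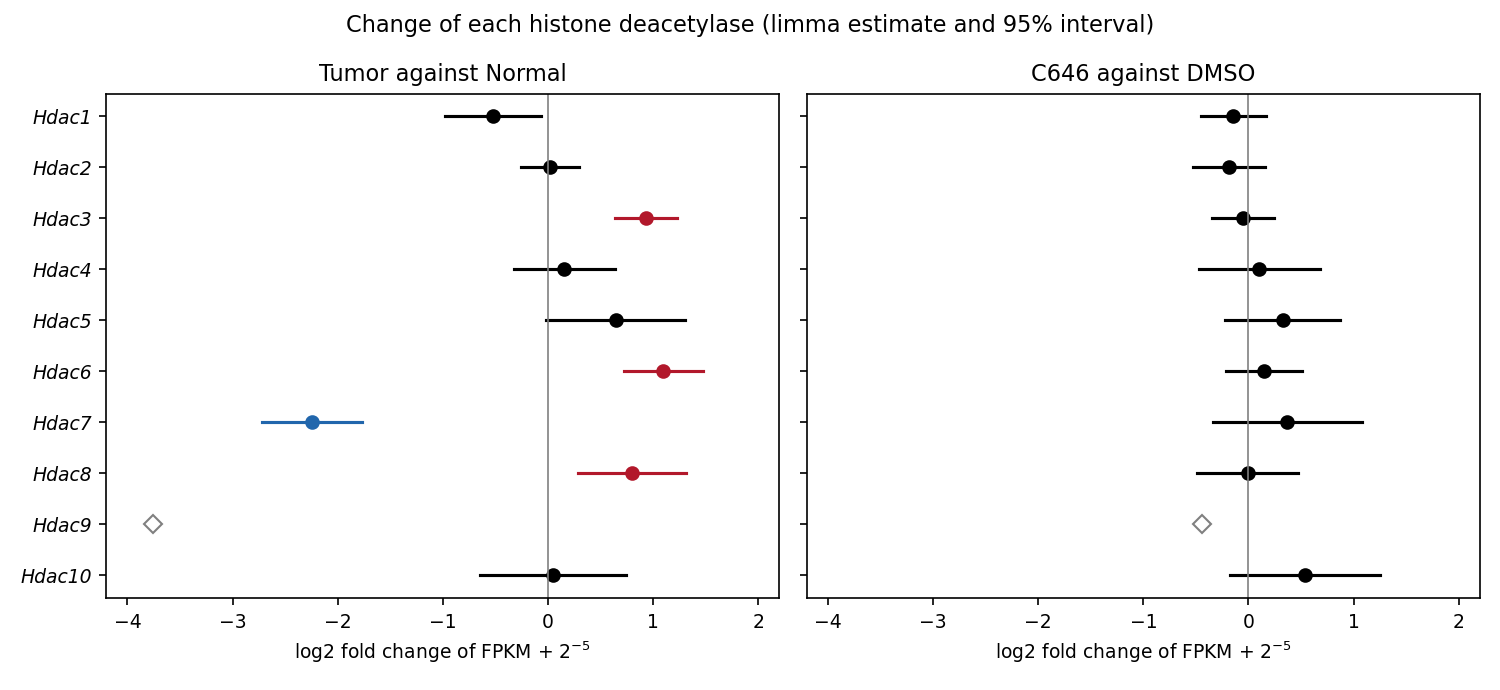
Log2 fold change of each gene with its 95% confidence interval from limma, for Tumor against Normal (left) and C646 against DMSO (right). Red marks genes that rose, blue those that fell and black those that did not pass. The open diamonds for Hdac9 are estimates from the fit without the filter on low values. Hdac7 at -2.25 is the only gene of the tested 9 with an interval wholly below -1, and all intervals on the right include 0.

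Among class I genes, Hdac3 showed the clearest difference. It measured 45.1, 47.7 and 44.4 FPKM in Normal 1 to 3 and 95.7, 80.5 and 86.0 in Tumor 1 to 3. Every Tumor sample was above every Normal sample, and the mean was 1.91-fold higher. Limma gave a log2 fold change of 0.93 (SE 0.124, 95% interval 0.64 to 1.22, limma adjusted p = 0.000621). With Tumor 1 left out it was 0.86 (adjusted p = 0.00112).

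Hdac8, on the X chromosome (102284639 to 102505359, minus strand), measured 6.61, 5.10 and 5.85 FPKM in Normal and 13.6, 9.01 and 8.60 in Tumor. All Tumor samples were above all Normal samples, and Tumor 1 was the highest. This came to a log2 fold change of 0.80 (SE 0.218, limma adjusted p = 0.0151), which was 0.59 without Tumor 1 (adjusted p = 0.0252) and 0.71 without Normal 2, where it no longer passed (adjusted p = 0.0542).

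Hdac1 and Hdac2, which are close paralogs and share complexes, did not pass the test. Hdac1 (chromosome 4, 129516104 to 129542713, minus strand) measured 29.4, 30.0 and 29.1 FPKM in Normal and 15.3, 24.0 and 23.7 in Tumor. All 3 Tumor values lay below the Normal values, with Tumor 1 the lowest of the 12 samples. The log2 fold change of -0.52 had an adjusted p of 0.0509 (limma, SE 0.195), just over the threshold, and was -0.31 without Tumor 1. Hdac2 (chromosome 10, 36974544 to 37001889, plus strand) measured 38.4, 41.5 and 39.2 FPKM in Normal and 38.1, 42.8 and 39.6 in Tumor, and these ranges overlapped. Its log2 fold change of 0.015 had a 95% interval of -0.26 to 0.29. The ratio of Hdac2 to Hdac1 was between 1.30 and 1.39 in Normal and between 1.67 and 2.50 in Tumor, with no overlap, and an exact permutation test of 3 against 3 samples cannot give a p below 0.1.

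In class IIa, Hdac7 fell further than any other member tested. It measured 17.8, 19.0 and 15.8 FPKM in Normal and 3.93, 2.83 and 4.43 in Tumor. The groups were far apart and the Normal mean was 4.71-fold the Tumor mean. The log2 fold change was -2.25 (SE 0.201, 95% interval -2.72 to -1.77, limma adjusted p = 0.00011), and its size was at the 82nd percentile of all genes tested. Hdac7 is known for its roles in endothelial cells and in developing lymphocytes. Summed endothelial markers were between 255 and 284.7 FPKM in Normal and between 45.1 and 90.0 in Tumor, with Pecam1 at 52.8 to 64.5 and 5.33 to 10.3 FPKM, and summed T lymphocyte markers were between 289.4 and 386.9 and between 3.95 and 4.56. The part of these cell types in the difference of Hdac7 was not tested.

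Hdac7 lies on the minus strand of chromosome 15 (97792664 to 97844502, GRCm38). RefSeq lists 4 start sites for it, and the 250 bases before the outermost are shown because Hdac7 had the largest change among the members tested. A search of this stretch on both strands for the GC box GGGCGG, the CCAAT box CCAAT, the E-box CACGTG and the E2F-like motif TTTCGCG found no match, so no letters are in capitals. The window of another start (97831446 to 97831745) held 1 GC box, and the remaining windows of Hdac7 held no match. The table of start sites does not say which of the 4 is used in these tissues.
Hdac7 upstream of the outermost start, chr15:97844503-97844752 (GRCm38.p6, minus strand): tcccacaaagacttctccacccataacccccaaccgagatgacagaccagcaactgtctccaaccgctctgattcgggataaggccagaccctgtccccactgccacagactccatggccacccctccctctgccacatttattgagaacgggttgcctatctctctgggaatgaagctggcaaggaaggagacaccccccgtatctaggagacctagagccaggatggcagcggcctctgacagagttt

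Hdac9 was close to the limit of the measurement. It measured 0.958, 1.11 and 0.917 FPKM in Normal and 0.0548, 0.0845 and 0.0121 in Tumor. Only 1 of these 6 samples reached 1 FPKM, and all Tumor values lay below all Normal values. The Normal mean of 0.995 was 19.7-fold the Tumor mean of 0.0505 (exact permutation test, two-sided p = 0.1, the smallest that 3 against 3 samples allow). In the fit without the filter on low values, its log2 fold change was -3.76 (SE 0.489, limma adjusted p = 0.000727). The added 0.03125 lies within the range of the Tumor values and is not small beside them, so this change is understated on the log2 scale. Hdac9 covers 869516 bases of chromosome 12 (34047580 to 34917095), the longest gene of the 10. The 250 bases before its outermost start are shown beside those of Hdac7 as the other class IIa gene with far lower Tumor values, and the same 4 motifs had no match in them.
Hdac9 upstream of the outermost start, chr12:34917096-34917345 (GRCm38.p6, minus strand): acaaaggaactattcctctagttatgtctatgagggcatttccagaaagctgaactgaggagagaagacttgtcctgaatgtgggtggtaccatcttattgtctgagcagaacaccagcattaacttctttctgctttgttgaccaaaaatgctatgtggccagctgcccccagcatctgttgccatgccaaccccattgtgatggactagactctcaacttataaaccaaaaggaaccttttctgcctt

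The remaining class IIa genes, Hdac4 (chromosome 1, 91928779 to 92195699) and Hdac5 (chromosome 11, 102194432 to 102230166), did not pass. Hdac4 measured 4.17, 3.68 and 3.33 FPKM in Normal and 4.42, 3.35 and 4.76 in Tumor, with overlap and a log2 fold change of 0.15 (95% interval -0.33 to 0.63, limma adjusted p = 0.542). In the GENCODE vM21 annotation 22.4% of the exon bases of Hdac4 are shared with Gm26720, a lincRNA on the opposite strand, and the libraries do not keep strand, so reads there cannot be assigned to either gene. Hdac5 measured 30.0, 33.9 and 30.4 FPKM in Normal and 77.6, 35.0 and 43.3 in Tumor. All Tumor values were above the Normal values, but Tumor 1 stood far above Tumor 2 and Tumor 3. Its log2 fold change was 0.64 (SE 0.281, limma adjusted p = 0.0836), 0.31 without Tumor 1 (adjusted p = 0.114) and 0.89 without Tumor 2 (adjusted p = 0.0231). Tumor 1 also had the highest summed muscle markers, 5195 FPKM against 2873 and 1810 in Tumor 2 and 3. Its adipocyte, brown fat, endothelial, T lymphocyte, macrophage, fibroblast and luminal epithelial sums were likewise the highest of the Tumor group. Its proliferation sum was the lowest. Class IIa enzymes are known to be abundant in muscle, and the part of any of these tissues in the Hdac5 level was not tested.

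The Hdac5 row was joined with Mir8101, whose hairpin of 111 bases lies wholly within exons of Hdac5 on the same strand. The hairpin makes up 1.26% of the exon bases of Hdac5. The mature microRNA is shown because its gene shares the row, with the seed (bases 2 to 8) in capitals. A poly-A library does not capture mature microRNAs, so the row is no measure of it.
mmu-miR-8101, chr11:102230103-102230124 (GRCm38.p6, minus strand): gGCGAGCGgagccggaggagcc

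Of the class IIb genes Hdac6 rose and Hdac10 did not pass. Hdac6 measured 6.07, 6.43 and 5.58 FPKM in Normal and 14.6, 11.1 and 13.3 in Tumor. The lowest Tumor sample was well above the highest Normal sample, and the mean was 2.15-fold higher. The log2 fold change was 1.10 (SE 0.160, 95% interval 0.72 to 1.47, limma adjusted p = 0.000941), the largest rise among the members, and 1.01 without Tumor 1 (adjusted p = 0.00226). In the second experiment Hdac6 lay between 16.9 and 22.2 FPKM in all 6 tumors.

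Hdac6 lies on the minus strand of the X chromosome (7930120 to 7947889, GRCm38). The outer 92 bases of its RefSeq promoter window, which lie outside every annotated exon, are shown because Hdac6 rose most, with GC boxes in capitals. The whole window of 300 bases held 5 matches to GGGCGG and 2 to CCAAT. Windows were given for 7 of the 10 members, 11 windows in all, of which 5 held a GC box, 4 a CCAAT box, 1 the E-box and 0 the E2F-like motif. Over all 32851 windows of the same length the shares with a match were 35.7% for the GC box, 37.4% for the CCAAT box, 7.15% for the E-box and 0.85% for the E2F-like motif. These counts describe letters in the windows and not bound sites.
Hdac6 promoter window, outer stretch, chrX:7948048-7948139 (GRCm38.p6, minus strand): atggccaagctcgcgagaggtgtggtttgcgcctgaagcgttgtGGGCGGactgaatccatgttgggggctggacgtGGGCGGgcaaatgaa

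Hdac10, a compact gene of 5394 bases on chromosome 15 (89123307 to 89128700, minus strand), measured 22.8, 19.7 and 12.2 FPKM in Normal and 25.6, 15.7 and 14.98 in Tumor. Its replicates were the most widely spread of the Normal group, and the groups overlapped. The log2 fold change of 0.045 had a 95% interval of -0.65 to 0.74 (limma adjusted p = 0.904), so that a change within this interval was not detectable with these samples.

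The remaining deacetylases of the mouse gave no common direction. Hdac11, the only class IV enzyme, measured 12.1, 9.71 and 10.8 FPKM in Normal and 17.9, 13.7 and 19.0 in Tumor, and rose with a log2 fold change of 0.62 (SE 0.173, limma adjusted p = 0.0169). Of the 7 sirtuins, the deacetylases that need NAD, 1 rose, 2 fell and 4 did not pass, a smaller share called than the 60.5% of all genes. Sirt6, a chromatin-bound H3K9 deacetylase, rose with a log2 fold change of 0.73 (adjusted p = 0.0026). Sirt1, the nuclear sirtuin that also deacetylates p53, fell by 0.90 on the log2 scale (adjusted p = 0.00327), and the mitochondrial Sirt3 fell by 0.78 (adjusted p = 0.0234). Sirt2, Sirt4, Sirt5 and Sirt7, the last of them read only from a row joined with other names, had log2 fold changes between -0.20 and 0.36.

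On the side of the acetyltransferases that these enzymes oppose, Ep300, which encodes p300, measured 8.65, 8.57 and 7.59 FPKM in Normal and 3.06, 3.74 and 3.19 in Tumor. This mRNA fell by 1.31 on the log2 scale (SE 0.164, limma adjusted p = 0.000466), with no overlap. The study reported the other direction for the protein, with more p300 in tumors by western blot. In the second experiment Ep300 measured 10.05, 9.08 and 5.84 FPKM in DMSO and 11.3, 9.16 and 10.35 in C646. All of these values lay above the Tumor values, a comparison across experiments that was not tested. Crebbp, which encodes CBP, measured 4.39, 3.11 and 3.50 FPKM in Normal and 3.90, 2.84 and 3.89 in Tumor, and its log2 fold change of -0.049 did not pass (adjusted p = 0.86).

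Genes of the 4 corepressor complexes moved in both directions. Of 37 genes, 11 rose, 7 fell and 19 did not pass, with a median log2 fold change of 0.19 against -0.016 over all genes tested. These shares were near or below those of all genes, of which 28.8% were called higher and 31.7% lower. In the SIN3 complex 5 of 13 rose and 3 fell. Sap30, a subunit that links SIN3 to Hdac1 and Hdac2, measured 7.20, 7.62 and 6.45 FPKM in Normal and 30.7, 39.6 and 29.2 in Tumor, with a log2 fold change of 2.21 (adjusted p = 5.3e-05). The scaffold Sin3b rose with 0.89 (adjusted p = 0.0034), whereas Arid4a fell by 1.42 (adjusted p = 0.000238) and Brms1l by 0.79 (adjusted p = 0.00455). In the NuRD complex 4 of 11 rose and 2 fell. Its 2 chromatin remodelling ATPases differed in direction, Chd4 with a log2 fold change of 0.67 (adjusted p = 0.0372) and Chd3 with -0.70 (adjusted p = 0.0198). Mta3 had the largest rise there, 0.72 (adjusted p = 0.00157), and Gatad2b fell by 0.40 (adjusted p = 0.0448).

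In the CoREST complex 2 of 9 genes rose and 0 fell, and 7 did not pass. Kdm1a, the H3K4 demethylase that works beside Hdac1 and Hdac2 in this complex, measured 27.1, 21.8 and 20.6 FPKM in Normal and 53.3, 53.6 and 55.3 in Tumor (log2 fold change 1.23, adjusted p = 0.000317). Zmym3 rose with 0.52 (adjusted p = 0.0305). Of 4 genes of the NCoR complex, the partners of Hdac3, 0 rose and 2 fell. The corepressor Ncor1 measured 18.9, 19.2 and 19.7 FPKM in Normal and 7.45, 9.89 and 10.2 in Tumor. It fell by 1.08 on the log2 scale (limma adjusted p = 0.00098), while the DMSO tumors held 21.5, 21.3 and 14.9 FPKM. Tbl1xr1 fell by 0.41 (adjusted p = 0.0485).

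Of the 4 MEF2 factors bound by class IIa enzymes, Mef2a, Mef2c and Mef2d fell and Mef2b did not pass, against 31.7% of all genes called lower. Mef2c measured 6.41, 6.34 and 7.91 FPKM in Normal and 2.08, 2.50 and 1.70 in Tumor, a fall of 1.71 on the log2 scale (adjusted p = 0.000436), and Mef2d fell by 1.12 (adjusted p = 0.00115). Mef2b, read only from a row joined with other names, measured 35.7, 42.5 and 27.9 FPKM in Normal and 68.8, 45.3 and 43.1 in Tumor (log2 fold change 0.56, adjusted p = 0.0734). Of 14 kinases that phosphorylate class IIa enzymes, 7 fell, 1 rose and 6 did not pass. Of all genes, 31.7% were called lower and 28.8% higher. The share of kinases called in either direction was near the 60.5% of all genes, but falls made up most of it. Camk4, a kinase abundant in T lymphocytes, fell by 3.99 on the log2 scale (adjusted p = 0.000398). Camk1d fell by 3.50 (adjusted p = 0.000113), and Camk1 rose with 0.81 (adjusted p = 0.00661). Camk4 measured 1.34, 1.77 and 1.43 FPKM in Normal and 0.0899, 0.0834 and 0.0337 in Tumor. Camk1d measured 3.21, 2.68 and 3.16 FPKM in Normal and 0.306, 0.229 and 0.19 in Tumor. Camk4 and Camk1d passed the filter through Normal alone, so their calls rest in part on the filter. The value added to FPKM before the log2 is not small beside the Tumor values of Camk4. The size of the Camk4 fall therefore depends on it. Mef2c is known in lymphocytes and muscle, and T lymphocyte markers were lower and muscle markers higher in Tumor as given above, with their part not tested.

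All 7 genes of 14-3-3 proteins, which hold phosphorylated class IIa enzymes in the cytoplasm, were called, 5 as higher and 2 as lower, against 28.8% and 31.7% of all genes. Sfn, the epithelial member of this family, had the largest rise, from 13.9, 8.90 and 7.09 FPKM in Normal to 63.0, 51.8 and 56.7 in Tumor (log2 fold change 2.57, adjusted p = 0.000147), and Ywhae rose with 0.93 (adjusted p = 0.00232). Ywhag fell by 1.68 (adjusted p = 8e-05) and Ywhab by 1.26 (adjusted p = 0.000306). The direction thus differed within the family.

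**Figure D5:**
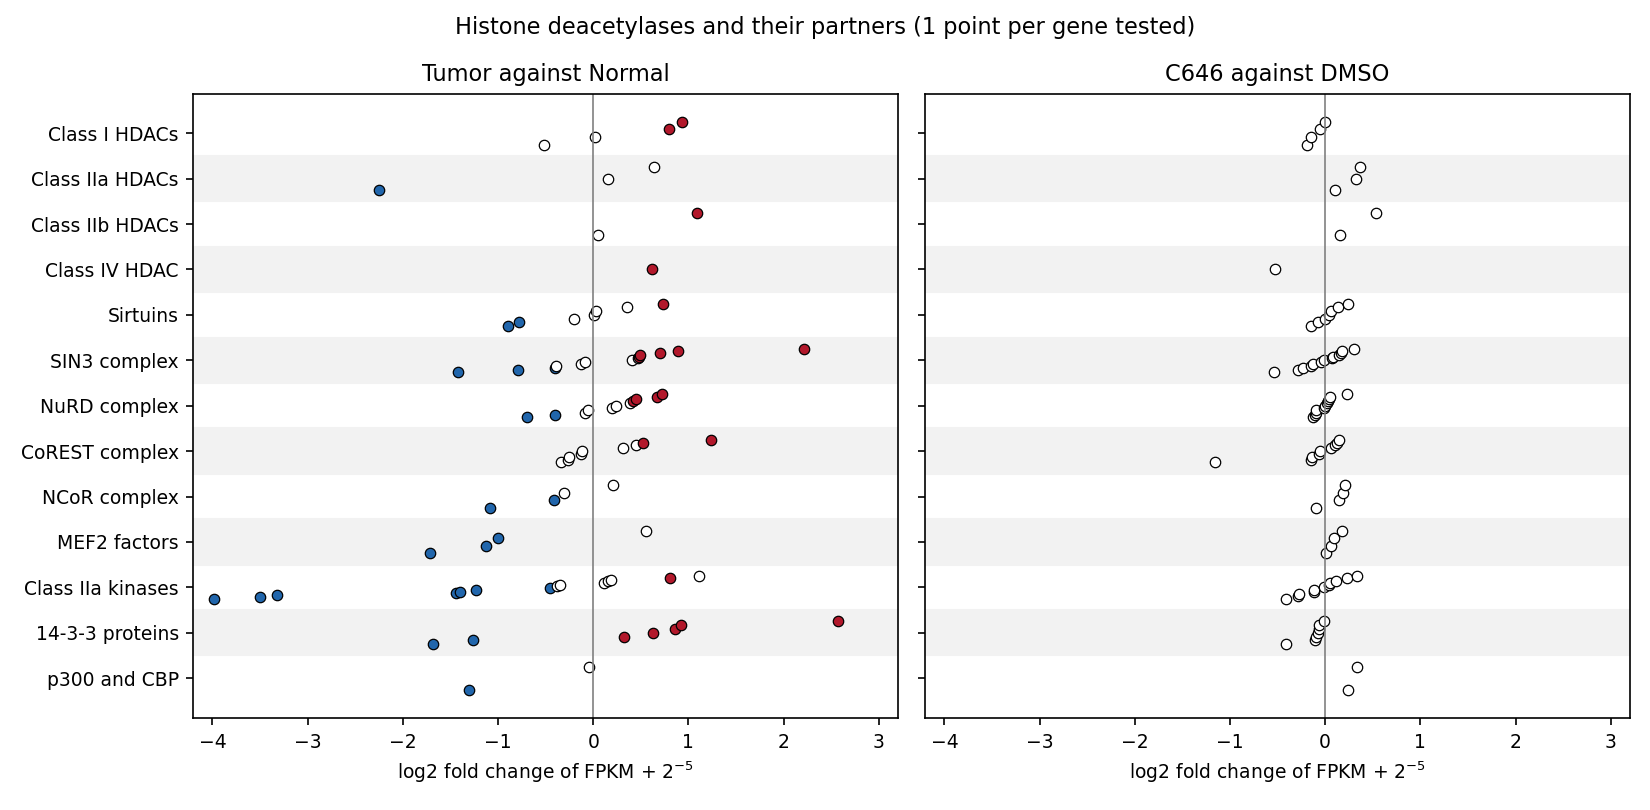
Log2 fold change of each tested gene of the histone deacetylase classes and of their partner lists, 1 point per gene, for Tumor against Normal (left) and C646 against DMSO (right), with red for genes that rose, blue for genes that fell and white for genes that did not pass. Red and blue points occur together in the left panel within the sirtuins, SIN3, NuRD, kinase and 14-3-3 lists, and all points in the right panel are white.

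The genes most alike to Hdac6 and Hdac7 were ranked by the root mean square difference of their centred log2 values over all 12 samples, among 10107 genes. This is a description, since the values of both genes set the ranking. Nearest to Hdac6 were Stk25, Cdc42se1, Ganab, Irf2bpl and Tmub2, with differences of 0.0907, 0.0913, 0.108, 0.109 and 0.110 against a median of 0.480 over all genes. Nearest to Hdac7 were S100a4, Stx2, Pitpnm2, Heg1 and Cyth4, with differences of 0.213 to 0.241 against a median of 0.923. The differences cannot be compared directly between Hdac6 and Hdac7, since the median over all genes was also larger for Hdac7.

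Treatment with C646 was compared with DMSO in the second experiment. None of the 9 members tested passed the test, Hdac9 being below the filter, and none of all 12083 genes tested passed it, so the background share was 0%. At an unadjusted p under 0.05 there were 384 genes, 3.18% of those tested and fewer than the 5% that this threshold gives with no change, and no member was among them. DMSO and C646 ranges overlapped for all 10 members, while they were apart for 8.56% of all genes tested, 4.04% with C646 higher and 4.52% with C646 lower.

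Class I genes had small estimates between the treatments. Hdac3 measured 80.6, 87.1 and 89.7 FPKM in DMSO and 81.1, 92.7 and 75.4 in C646, with a log2 fold change of -0.050 (95% interval -0.35 to 0.25). Hdac1 measured 31.8, 26.8 and 33.0 in DMSO and 25.5, 28.6 and 28.5 in C646, a log2 fold change of -0.15 (95% interval -0.45 to 0.16). The intervals for both genes leave room for a change of less than 0.5 on the log2 scale in either direction. Hdac2 measured 56.9, 52.7 and 70.3 FPKM in DMSO and 49.9, 57.1 and 50.1 in C646, a log2 fold change of -0.19 (95% interval -0.53 to 0.16). Hdac8, at 14.99, 15.2 and 11.3 FPKM in DMSO and 16.8, 13.7 and 11.1 in C646, had a log2 fold change of -0.0056 (95% interval -0.49 to 0.47).

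Most of the class II genes had wider intervals than the class I genes, Hdac6 excepted. Hdac10 had the largest estimate of the members, with 5.38, 10.8 and 8.39 FPKM in DMSO and 12.7, 8.53 and 13.8 in C646. Its log2 fold change was 0.54 (95% interval -0.18 to 1.25, limma adjusted p = 0.99), and its size was at the 90.3 percentile of all genes tested. Hdac7 measured 3.36, 6.19 and 6.84 FPKM in DMSO and 8.02, 5.76 and 6.66 in C646, a log2 fold change of 0.37 (95% interval -0.34 to 1.08). DMSO 1 was the lowest of the 6 samples for Hdac4, Hdac5, Hdac7 and Hdac10 alike. Without it the log2 fold changes were 0.26 for Hdac10, 0.053 for Hdac7, 0.078 for Hdac5 and -0.040 for Hdac4. Hdac5 measured 31.0, 53.2 and 50.2 FPKM in DMSO and 53.7, 48.0 and 63.1 in C646 (log2 fold change 0.32, 95% interval -0.22 to 0.87). For Hdac6 the values were 17.7, 20.8 and 16.9 in DMSO and 17.5, 22.0 and 22.2 in C646 (0.15, 95% interval -0.21 to 0.51). Hdac4 lay between 2.41 and 3.78 FPKM in the 6 samples (0.10, 95% interval -0.47 to 0.68), and Hdac9 lay between 0.0887 and 0.199 FPKM, below the filter.

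The other deacetylases and the partner genes likewise gave no call between C646 and DMSO. Hdac11 measured 36.9, 24.6 and 21.6 FPKM in DMSO and 20.3, 18.2 and 17.7 in C646. Every C646 sample was below every DMSO sample, but its log2 fold change of -0.53 had an adjusted p of 0.99 (unadjusted 0.0403), and 4.52% of all genes tested lay apart in this direction. Ep300 had a log2 fold change of 0.33 (95% interval -0.21 to 0.88) and Crebbp one of 0.24 (95% interval -0.11 to 0.58). The 37 genes of the corepressor complexes had a median log2 fold change of -0.0023 against -0.015 over all genes tested, and none of the 4 MEF2 factors, 11 kinases and 7 14-3-3 genes tested passed.

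Set side by side without a test, untreated Tumor and DMSO samples averaged 87.4 and 85.8 FPKM for Hdac3 and 3.73 and 5.46 for Hdac7. For Hdac10 the averages were 18.8 and 8.20 FPKM, and for Hdac2 40.2 and 60.0. The deacetylases, acetyltransferases and partners named above as called lower in Tumor differed in DMSO. DMSO and Normal ranges overlapped for Ep300, Ncor1, Sirt1, Sirt3, Brms1l, Tbl1xr1, Mef2a and Mef2d. DMSO values lay above all Normal values for Gatad2b. They lay below all Normal values for Hdac7, Arid4a, Chd3, Mef2c, Camk1d, Camk4, Ywhab and Ywhag. The muscle markers, the injections and the sets of rows also differed between Tumor and DMSO samples, and their parts cannot be told apart.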

How the data were processed

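RNA-seq of poly-A RNA from 12 samples was analysed in 4 groups of 3. The authors trimmed reads, aligned them to mm10 with TopHat2 2.1.1 and computed FPKM values with Cufflinks 2.2.1, per the labels and the study's methods, and deposited 1 FPKM table per sample. The libraries were not strand-specific, and the annotation used is not given in the sources used here. The deposited FPKM values were summed over rows of a name (at most 544 repeated names per table), with joined names read as such, and 1837 rows without a name were left out of the Normal and Tumor tables. The methods name a common planned sequencing depth for the RNA-seq libraries. Mapped reads per library are not in the tables, so equal depth cannot be taken as reached. Because no read counts were used, limma 3.58.1 (eBayes with trend, two-sided) was run on log2(FPKM + 0.03125) for genes at or above 1 FPKM in at least 3 of 6 samples, with Benjamini-Hochberg adjustment at 0.05. P-values measure the spread between these samples only. The script was tested on simulated data. Named genes were the members, Hdac11, the sirtuins, Ep300, Crebbp, up to 2 called genes per direction and partner list with the largest change, and the 5 genes most alike to Hdac6 and Hdac7. The members are a gene family taken whole by name, and it and the partner lists were chosen with earlier results of these data known. Of the partner lists, 1 item is not reported here. Gene positions came from GENCODE vM21 and sequences from RefSeq (GRCm38.p6, the same coordinates as mm10). Alternatives were no filter, pseudocounts of 0.25 and 1, median-ratio and quantile scaling, the highest row of a name, no variance trend, a replicate block and leaving out each replicate.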

Additional observations from a re-analysis of the deposited data

How the results depend on the processing

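Hdac3, Hdac6 and Hdac7 kept their direction and passed the test between Tumor and Normal under every alternative run, and Hdac8 did so except without Normal replicate 2. The number of members lower in Tumor was 1 and became 2 without the filter (Hdac7 and Hdac9), with a pseudocount of 1 or 0.25 and after quantile normalization (Hdac7 and Hdac1). With 1 replicate left out, the number lower ranged from 1 to 2, the number higher from 2 to 4 and all genes called from 5600 to 7483. Hdac1 also passed without Tumor 2 (adjusted p = 0.0361) or Tumor 3 (adjusted p = 0.048), and Hdac4 passed only after quantile normalization (0.59, adjusted p = 0.031), which moved the median log2 fold change of all genes from -0.016 to 0.10. Between C646 and DMSO no member was called under any alternative, and leaving out 1 replicate gave 0 to 12 genes called in all, the 12 without DMSO 2. Near 0, the direction changed: for Tumor against Normal, Hdac2 was -0.14 after quantile normalization and -0.031 to 0.051 with a replicate left out, and Hdac10 -0.22 to 0.23. For C646 against DMSO, Hdac3 was 0.055 after quantile normalization and -0.13 to 0.017 with a replicate left out, Hdac4 was -0.040 to 0.18, and Hdac8 was 0.0006 after median-ratio scaling, 0.015 after quantile normalization and -0.15 to 0.14 with a replicate left out.

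The labels number the replicates of each group but do not say that a number joins mice, and deviations of samples with the same number correlated by -0.098 to 0.010 between Tumor and Normal and by 0.070 to 0.17 between C646 and DMSO. With the replicate block, 7266 genes were called between Tumor and Normal, with 3 members higher and 1 lower, and 0 between C646 and DMSO. In the first pair of groups 1 of 6 samples correlated best with its own number, and 4 of 6 in the second. The depth of the libraries is not in the tables, which limits above all Hdac9, below 0.2 FPKM in all 9 tumors.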
